A study of Mus musculus with 52 samples.

Results

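The 38 genes followed here encode DNA repair enzymes and DNA damage checkpoint kinases, and their transcripts were read on Affymetrix arrays of mouse liver after dosing with genotoxic or non-genotoxic chemicals. They were taken by name: every probe set (a group of short probes for 1 transcript) whose only gene symbol in the array annotation was 1 of the 38. Of the 38 genes, 37 were measured, by 65 of the 22626 probe sets that are not array controls. Neil1, a DNA glycosylase, had no probe set under its symbol alone. After dim probe sets were removed, 55 of these 65 stayed among the 18349 kept probe sets, and each of the 37 genes held at least 1. Where a gene had several, its value was that of the probe set with the highest mean log2 signal.

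All mice were 9-week-old B6C3F1 males, a cross between inbred strains, and each array carried liver RNA combined from 5 mice. Each chemical was given once into the peritoneum, and 6 are classed as genotoxic. The aromatic mutagens among them were o-aminoazotoluene (AAT) at 300 mg/kg, dibenzo[a,l]pyrene (DBP) at 6 mg/kg and 7,12-dimethylbenzanthracene (DMBA) at 20 mg/kg. The alkylating agents were ethylnitrosourea (ENU) at 150 mg/kg, dimethylnitrosamine (DMN) at 5 mg/kg and dipropylnitrosamine (DPN) at 250 mg/kg. Ethanol (EtOH) at 1000 mg/kg and phenobarbital (PB) at 30 mg/kg were the non-genotoxic chemicals. Liver was taken 4 h, 20 h, 14 days and 28 days after the dose, with 1 array for each chemical at each time, 52 arrays in all. The 3 aromatic mutagens were set against a single olive oil control at each time and both non-genotoxic chemicals against a single saline control. A separate saline control went with every alkylating agent, so that each time held 5 controls. No treated condition had a second pool, while saline had 4 pools at each time. The error of a class mean below is the spread of chemicals around their class means, from 1 fit of all arrays of a time that all classes share. With only 2 non-genotoxic chemicals, the error of their class mean rests mostly on the spread between the 6 genotoxic ones. A ratio for 1 chemical has no error of its own.

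Cells remove altered bases by several routes. Mgmt takes alkyl groups off guanine directly. DNA glycosylases cut out single damaged bases, and Apex1, Xrcc1, polymerase beta and the ligases then fill the gap, which is base excision repair. Nucleotide excision repair removes bulky adducts: Xpc, Xpa and the Ddb proteins find the damage, helicases open the helix and the Ercc nucleases cut the strand. Mismatch repair proteins correct wrongly paired bases and also respond to alkylated guanine, while the Ku proteins (Xrcc5 and Xrcc6), Rad50, Nbn and the Brca proteins act at broken ends. Atm and Atr are the kinases that sense damage and signal through Chek1 and Chek2 to p53. The genotoxic chemicals used here are known to alkylate DNA or to form bulky adducts with it, and the comparisons ask whether transcripts of the repair and checkpoint genes changed in the liver.

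Array medians ran from 17.9 (PB, 28 days) to 205.1 (DMN control, 14 days), and every array was scaled to the same median. Values below a floor of 32.525 scaled units, the 30th percentile of all values, were set to it. Of the 37 genes, 21 were above the floor on all 52 arrays, while Ddb2, Prkdc and Chek1 were at the floor on most of them. The hepatocyte transcripts Alb, Apoa1, Apoa2, Ttr, Apoc3 and Fgb, secreted liver proteins, had scaled signals of 6428 to 22108. The EtOH array of 20 h stood apart, with a Gapdh 3′ to 5′ log2 ratio of 3.13. The saline control of 20 h had a Cyp2b10 log2 signal of 11.48, whereas the other 4 controls of that time had 6.19 to 7.26 and the PB array of 20 h had 8.25. Cyp2b10 is the cytochrome P450 that phenobarbital induces. Whether the labels of this control and the PB array were exchanged was not tested, and every EtOH and PB value of 20 h below rests on them. In RNA from whole liver, fewer cells of a type and less RNA per cell cannot be told apart.

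The promoters of 3 genes are shown, picked by their values below. Ung passed the test over time in controls, a call that was not firm. Ddb1 at 20 h and Atm at 4 h lay on the same side of their controls for all 6 genotoxic chemicals, and neither was called. Each was 1 of 37 genes at its time, against 5.62% and 6.31% of all kept probe sets. Ddb2 at 28 days did so too and is not shown. Each promoter is a window of 300 bases around a transcript start, from RefSeq on the GRCm38.p6 build, written along the gene's own strand. The start of the gene as a whole lies inside each window, some bases away from that transcript start. Capitals mark GGGCGG (the GC box) or CCAAT, read on both strands; no base was shared by both motifs.
Ung, chr5:114130185-114130484, plus strand: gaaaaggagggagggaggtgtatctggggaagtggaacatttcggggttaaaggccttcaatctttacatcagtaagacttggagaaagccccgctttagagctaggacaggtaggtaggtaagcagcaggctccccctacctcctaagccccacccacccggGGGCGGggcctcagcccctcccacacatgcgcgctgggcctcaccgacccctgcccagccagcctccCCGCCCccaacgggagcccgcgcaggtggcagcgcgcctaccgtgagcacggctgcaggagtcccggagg
Ddb1, chr19:10605347-10605646, plus strand: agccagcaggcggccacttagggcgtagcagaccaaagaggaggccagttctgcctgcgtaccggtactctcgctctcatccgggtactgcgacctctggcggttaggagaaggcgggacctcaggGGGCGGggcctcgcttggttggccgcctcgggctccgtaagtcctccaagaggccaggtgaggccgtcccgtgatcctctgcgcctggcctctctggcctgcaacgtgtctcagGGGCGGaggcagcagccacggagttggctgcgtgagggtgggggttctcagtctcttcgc
Atm, chr9:53536622-53536921, minus strand: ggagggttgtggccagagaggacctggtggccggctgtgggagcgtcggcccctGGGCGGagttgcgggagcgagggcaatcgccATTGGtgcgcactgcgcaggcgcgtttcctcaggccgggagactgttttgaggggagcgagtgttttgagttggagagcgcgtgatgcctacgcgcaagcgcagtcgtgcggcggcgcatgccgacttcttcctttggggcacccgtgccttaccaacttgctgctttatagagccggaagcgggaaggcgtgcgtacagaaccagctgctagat
The Ung and Ddb1 windows held 2 GC boxes each and no CCAAT, and the Atm window held 1 of each. The 4 letter strings searched for E2F (TTTCCCGC, TTTGGCGC, TTTCGCGC and TTTGCCGC, both strands) were in none of them. Of the 31 genes matched to the RefSeq promoter table, 20 had a GC box, 17 a CCAAT and 7 an E2F string. Over all 32851 promoters of the same length the shares were 35.7%, 37.4% and 2.26%. A gene counted where any of its promoters held the string, while these shares count single promoters. The gene counts and the shares are thus unlike measures, so whether the repair genes hold an excess cannot be judged from them. All are letter matches only.

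None of the 37 genes was called in the genotoxic class at any time. The test was limma on log2 signals of all 13 arrays of a time, with the control set as a block, and a probe set was called where its Benjamini-Hochberg adjusted p over all 18349 was under 0.05. None of the 18349 was called either, a share of 0% at 4 h, 20 h, 14 days and 28 days. At an unadjusted p under 0.05 there were 4 of the 37 genes at 4 h, against 9.73% of all probe sets, 1 at 20 h, against 4.62%, 2 at 14 days, against 11.8%, and 1 at 28 days, against 6.08%. The median log2 fold change of the 37 genes was 0.003 at 4 h, 0.000 at 20 h, 0.103 at 14 days and 0.022 at 28 days, and over all probe sets it was 0.015, 0.013, 0.051 and 0.000. The smallest adjusted p of a repair or checkpoint gene was 0.44, 0.965, 0.387 and 0.818 at these times.

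The intervals say how large a class change these arrays would leave room for, in genes whose values lay above the floor. The counts below also include Chek1, Prkdc and Ddb2, which were at the floor on most arrays. Ercc4, Xrcc5 and Ung were at the floor on some. Values set to the floor cannot vary, which narrows the interval, so a narrow interval of these genes excludes no change. The 95% interval of the log2 fold change lay within 0.5 of 0 for 19 of 37 genes at 4 h, 17 at 20 h, 10 at 14 days and 23 at 28 days. It lay within 1 of 0, a 2-fold change either way, for 35, 35, 34 and 37 genes. The only gene with a class log2 fold change of at least 0.5 in size at any of the 4 times was Ung at 4 h. Of all probe sets, 3.7%, 3.36%, 6.02% and 1.66% had one of that size at 4 h, 20 h, 14 days and 28 days. The interval counts have no such share beside them.

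**Figure D1:**
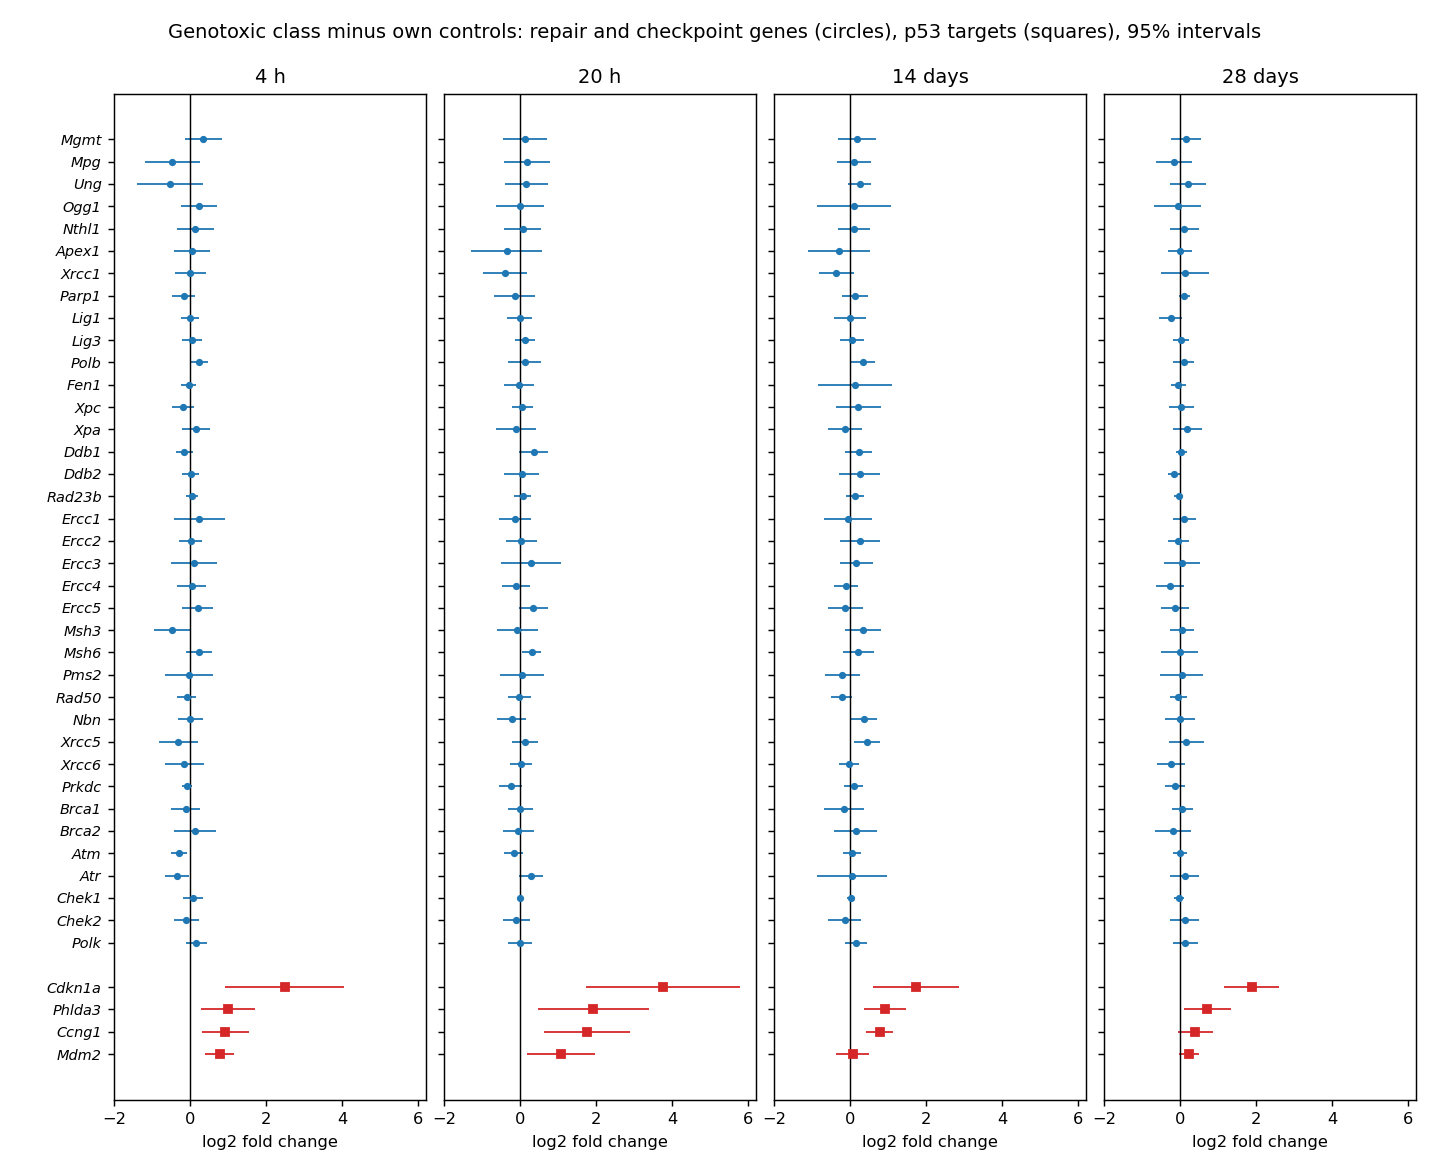
Log2 fold change of the genotoxic class against its own controls (x axis) for the 37 repair and checkpoint genes (circles) and 4 p53 target genes (squares) at 4 h, 20 h, 14 days and 28 days; lines are 95% intervals from limma with 13 arrays a time. The circles stay between -0.53 and 0.44, while Cdkn1a is between 1.73 and 3.76 at the 4 times, and none of the genes drawn was called.

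Beside these, 4 p53 target genes were read on the same arrays as a check that the tissue had responded: Cdkn1a (the p21 cell cycle inhibitor), Phlda3 (an inhibitor of Akt), Ccng1 (cyclin G1) and Mdm2 (the ubiquitin ligase for p53). The paper names all of these genes among its markers. It describes candidate markers as first picked from microarray data registered as this series. The check is therefore not independent of the arrays. The Cdkn1a signal at 20 h was 92.5 to 1657.3 in the 6 genotoxic arrays, with 977 for AAT, 402 for ENU, 1637 for DMN and 1657 for DPN, while the 5 controls were between the floor and 73.0. The DMBA and DBP arrays, at 92.5 and 117, were the lowest of the 6, and no genotoxic array overlapped the controls. The EtOH array of 20 h, at 201, was above both of them. At 4 h DMBA was below its control (-0.31) and the other 5 were above. Cdkn1a had class log2 fold changes of 2.48 ± 0.68 (SE), 3.76 ± 0.87, 1.73 ± 0.49 and 1.88 ± 0.31 at 4 h, 20 h, 14 days and 28 days, with adjusted p of 0.44, 0.965, 0.374 and 0.547, none of them called. The median of the 4 target genes was 0.957, 1.84, 0.844 and 0.556, against the medians between 0.000 and 0.103 for the repair and checkpoint genes. By chemical, the median of the 4 genes at 4 h and 20 h was -0.035 and -0.023 for DMBA and 0.125 and 0.158 for DBP, while for AAT and the alkylating agents it ran from 0.639 to 3.05. These comparisons share every array, so they are set side by side with no test of their difference. Genes picked for a response on these arrays would be high on them, so the contrast with the repair genes, which were taken by name, is not an even one.

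The 8 chemicals gave 1184 ratios of a repair or checkpoint gene to its own control, and 946 of them were within 0.5 of 0 on the log2 scale. At least 2-fold were 34 of the 1184, which is 2.87%, against 3.13% of the ratios of all kept probe sets. Pairs of the 4 saline controls of a time, 6 pairs at each, differed by as much in 3.27% of the values of the same genes. Of the 34 ratios, 14 were higher and 20 lower than the control, and in 9 of them the treated or the control array was at the floor, so that the ratio is only a bound. In 27 the change was larger than in any of the 6 saline pairs of that time. A ratio of at least 2-fold was seen in 18 genes, and 19 had none in 32 treated arrays. The counts of 946, 27 and 18 have no share of all probe sets beside them, so they single out no trait of the repair genes.

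By class and time, the genotoxic chemicals gave 9 of 222 at 4 h (4.05%, against 2.84% of all probe sets and 4.95% in saline pairs). They gave 1 of 222 at 20 h (0.45%, against 2.78% and 2.25%), 13 at 14 days (5.86%, against 4.18% and 4.95%) and 2 at 28 days (0.901%, against 1.96% and 0.901%). The share in genotoxic arrays was above that in saline pairs at 14 days alone. The 13 ratios of that time include Apex1 and Ogg1 for each of AAT, DMBA and DBP, all against 1 olive oil array. No other probe set of the 2 genes moved at least 2-fold the same way in these. With the mean of kept probe sets the count at 14 days was lower, as given in the last section. The non-genotoxic chemicals gave 0 of 74 at 4 h, against 1.58% of all probe sets, and 3 at 20 h (4.05%, against 8.62% and 2.25% in saline pairs), all 3 on the EtOH array. They gave 2 at 14 days (2.7%, against 1.77% and 4.95%) and 4 at 28 days (5.41%, against 2.87% and 0.901%), the last all on the PB array. Their share was above that in saline pairs at 20 h and 28 days.

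**Figure D2:**
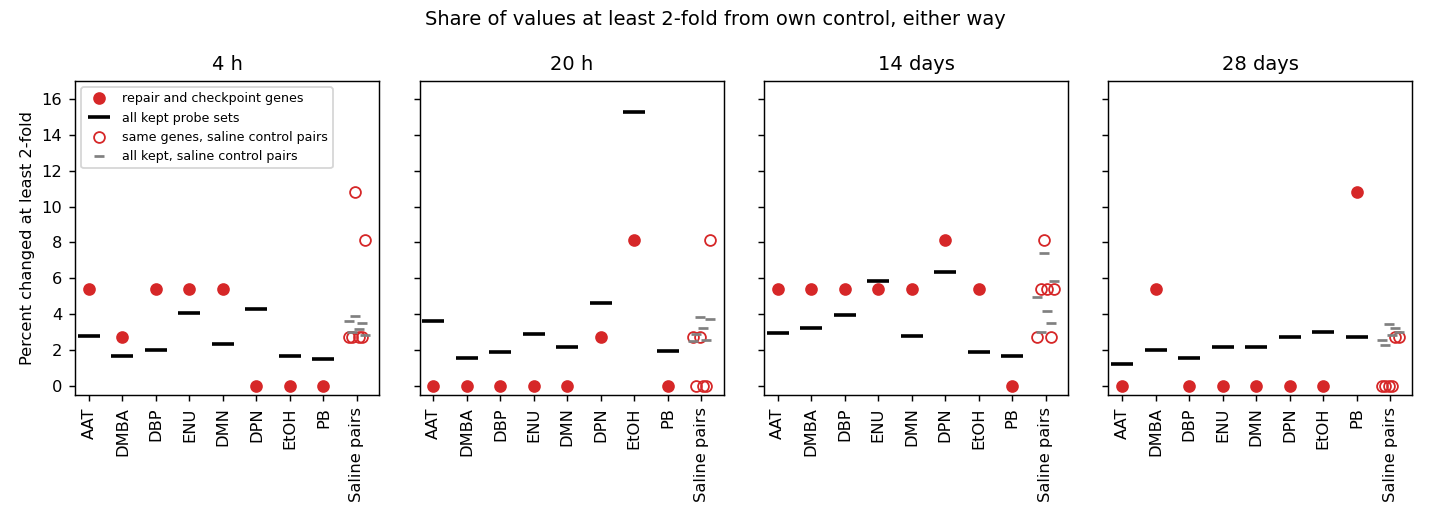
Percent of values at least 2-fold from the control, either way (y axis), for each treated array and for the 6 saline control pairs of each time: filled circles are the 37 repair and checkpoint genes, black bars all 18349 kept probe sets, open circles and grey bars the same in saline pairs. The shares of the repair genes run from 0% to 10.8% in treated arrays, and 1 EtOH array has 15.3% over all probe sets.

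Of the direct reversal and glycosylase genes, none was called in the genotoxic class. Mgmt, which repairs O6-alkylguanine, had a 4 h signal of 75.0 after AAT, 68.0 after DMBA and 115 after DBP, against 46.9 in their olive oil control. It was 78.3 against 72.9 for ENU, 67.1 against 73.8 for DMN and 68.9 against 55.9 for DPN, and the 5 controls ranged from 46.9 to 77.1. The ratio was thus higher for all 3 chemicals given in olive oil, with log2 ratios of 0.68, 0.54 and 1.30, and that olive oil control was the lowest of the 5 controls. The class log2 fold change of Mgmt was 0.34 ± 0.21 at 4 h (adjusted p = 0.629), and without the olive oil array it was 0.09.

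Ung, uracil DNA glycosylase, had the largest class difference of the 37 genes at 4 h, and it was not called. Its 4 h signals were 43.1 for AAT, 126 for DMBA, 104.5 for DBP, the floor for ENU, 74.3 for DMN and 62.8 for DPN. The controls at 4 h had 113 (olive oil), 83.6 (ENU), 53 (DMN), 113 (DPN) and 80.1 (saline of EtOH and PB). Treated and control arrays overlapped, 4 of the 6 chemicals were below their control, and the class log2 fold change was -0.53 ± 0.38 (adjusted p = 0.666). At the later times it was 0.16 (20 h), 0.25 (14 days) and 0.20 (28 days).

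Mpg, which removes alkylated purines, was at the floor after AAT and DMBA at 4 h and at 50.6 after DBP, with 71.4 in olive oil. It was 118 after ENU (control 82.1), 46.2 after DMN (control 121) and 67.3 after DPN (control 62.9). The alkylating agents thus lay on both sides of their controls, and the class value was -0.48 ± 0.31 (adjusted p = 0.652). Ogg1 and Nthl1, which remove oxidised bases, had class log2 fold changes from -0.07 to 0.23 and from 0.07 to 0.14 over the 4 times.

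The base excision core showed the same pattern of small class values. Lig1, Lig3, Parp1, Polb and Fen1 had class log2 fold changes between -0.26 and 0.32 over the 4 times. Polb, the gap-filling polymerase, was higher in 5 of 6 chemicals at 4 h (0.23 ± 0.10, unadjusted p = 0.0436, adjusted p = 0.506) and in 5 of 6 at 14 days (0.32 ± 0.14, unadjusted p = 0.0498, adjusted p = 0.42). A second Polb probe set had -0.24, -0.71 and -0.38 for AAT, DMBA and DBP at 14 days, against 0.81, 0.59 and 0.35 on the one used. Xrcc1, the scaffold for the ligation step, was lower in 5 of 6 chemicals at 20 h (-0.40 ± 0.25, adjusted p = 0.965) and in 5 of 6 at 14 days (-0.37 ± 0.20, adjusted p = 0.462), and was 0.12 at 28 days. Its saline controls also varied, with an SD of 0.483 within a time, against a median of 0.294 for the 37 genes and 0.253 for all kept probe sets. Apex1, the endonuclease that cuts at abasic sites, had -0.36 ± 0.40 at 20 h and -0.31 ± 0.35 at 14 days, the latter 0.27 without the olive oil array of 14 days.

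Among the nucleotide excision genes, Ddb1 at 20 h was the one gene above its control for all 6 genotoxic chemicals. Ddb1 is the adaptor of the ubiquitin ligase that binds ultraviolet damage. Its signals at 20 h were 372 (AAT), 598 (DMBA) and 383 (DBP), with 354 in olive oil. They were 459 for ENU (control 429), 537 for DMN (control 390) and 520 for DPN (control 357). The log2 ratios ran from 0.07 to 0.75, treated and control arrays overlapped, and the class value was 0.35 ± 0.16 (unadjusted p = 0.0682, adjusted p = 0.965). EtOH and PB also lay above their control, by 0.54 and 0.20. At 4 h Ddb1 had -0.16 ± 0.10, and the difference between the class effects at 20 h and 4 h was 0.50 ± 0.19 (adjusted p = 0.889). Of all kept probe sets, 5.62% had 6 of 6 chemicals on one side at 20 h.

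Ddb2, its partner and a known p53 target in human cells, was at or near the floor on most arrays. At 28 days it was 32.5 for AAT, DMBA, DBP and DMN, 40.0 for ENU and 42.0 for DPN, with controls of 36.9 (olive oil), 41.1 (ENU), 38.4 (DMN), 48.0 (DPN) and 32.5 (saline). All 6 were below their own control, and the 4 lowest were at the floor. The class value was -0.17 ± 0.07 (unadjusted p = 0.0484, adjusted p = 0.818), and 5.44% of all probe sets had 6 of 6 on one side at that time. Xpc, Xpa and Rad23b, the other recognition genes, had class values from -0.19 to 0.22. Rad23b was the steadiest of the genes above the floor, with an SD of 0.091 between saline controls of a time and all 32 ratios within 0.5 on the probe set used. Its other probe set had 0.78 for EtOH at 28 days and 0.53 for DPN at 14 days.

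The helicase and incision genes Ercc1, Ercc2, Ercc3, Ercc4 and Ercc5 had class values between -0.27 and 0.34. Ercc5, the nuclease that cuts on the 3′ side, was higher in 5 of 6 chemicals at 20 h (0.34 ± 0.16, adjusted p = 0.965). Ercc4, part of the nuclease for the 5′ side, was lower in 4 of 6 at 28 days (-0.27 ± 0.16, adjusted p = 0.852). Ercc1, its partner, was 0.24 ± 0.29 at 4 h and -0.06 without the DMN array or its control, which was at the floor.

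In mismatch repair, Msh3 was lower in 5 of 6 chemicals at 4 h (-0.49 ± 0.20, unadjusted p = 0.0436, adjusted p = 0.506) and higher in 5 of 6 at 14 days (0.34 ± 0.21, adjusted p = 0.501). Its 4 h signals were 45.1 for AAT, 61.8 for DMBA and 32.5 (the floor) for DBP, with 60.9 in olive oil. They were 52.9 for ENU (control 105.5), 66.1 for DMN (control 73.6) and 32.5 for DPN (control 42.7). The DMBA value was the one above its control, by a small margin, and the groups overlapped. At 14 days the class value of Msh3 was 0.109 without the ENU array. The ENU log2 ratio was 1.13 there, a bound with its control at the floor, while the second kept Msh3 probe set had -0.42. Msh6, a mismatch recognition protein, was higher in 5 of 6 at 20 h (0.30 ± 0.11, unadjusted p = 0.0247, adjusted p = 0.965). Pms2, the mismatch endonuclease, had class values from -0.21 to 0.04.

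Of the double-strand break genes, Xrcc5 (Ku80) had the lowest adjusted p of the 37 genes at 14 days, with controls that give only a bound. The signals at 14 days were 45.1 for AAT, 39.6 for DBP, 58.5 for ENU and 54.2 for DPN, and DMBA and DMN were at the floor. The olive oil, ENU, DMN and DPN controls were all at the floor and the saline control had 46.4. Since the controls were at the floor, the fitted value is a bound that rests on 4 arrays above it: 0.44 ± 0.15 (unadjusted p = 0.0195, adjusted p = 0.387). At 4 h, 20 h and 28 days Xrcc5 had -0.32, 0.13 and 0.16, the last -0.11 without the olive oil array of 28 days. Nbn, part of the complex with Rad50, was higher in 5 of 6 at 14 days (0.35 ± 0.16, adjusted p = 0.424). Rad50, Xrcc6 (Ku70), Prkdc (the DNA-dependent protein kinase), Brca1 and Brca2 lay between -0.25 and 0.14 at all 4 times, with Prkdc at the floor on 38 of 52 arrays.

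Atm was below its control for all 6 genotoxic chemicals at 4 h. The 4 h signals of AAT, DMBA and DBP were 140, 145 and 146, with 158 in olive oil. They were 110 for ENU (control 164), 110 for DMN (control 141) and 121 for DPN (control 143). The ENU, DMN and DPN arrays were below every control, the lowest of which was the saline control at 125, and the 3 aromatic mutagens overlapped the controls. The 2 non-genotoxic arrays had 118.7 and 126.7 at 4 h, and the lower of them was also below every control. The class log2 fold change was -0.30 ± 0.09 (unadjusted p = 0.0109, adjusted p = 0.44). The saline controls of a time differed by an SD of 0.132, and 6.31% of all probe sets had 6 of 6 chemicals on one side. At 20 h the class value was -0.18 ± 0.11, and at 14 and 28 days it was 0.04 and -0.02. The first day minus later difference was -0.25 ± 0.10 (adjusted p = 0.556).

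Atr, the kinase for single-stranded DNA, was lower in 5 of 6 chemicals at 4 h (-0.34 ± 0.14, unadjusted p = 0.0381, adjusted p = 0.492) and higher in 4 of 6 at 20 h (0.28 ± 0.14, adjusted p = 0.965). Chek2 lay between -0.15 and 0.11. Chek1 was at the floor on 46 of 52 arrays, so no class fold is given for it. Polk, a polymerase that copies past adducts, had at most 0.16 in size.

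**Figure D3:**
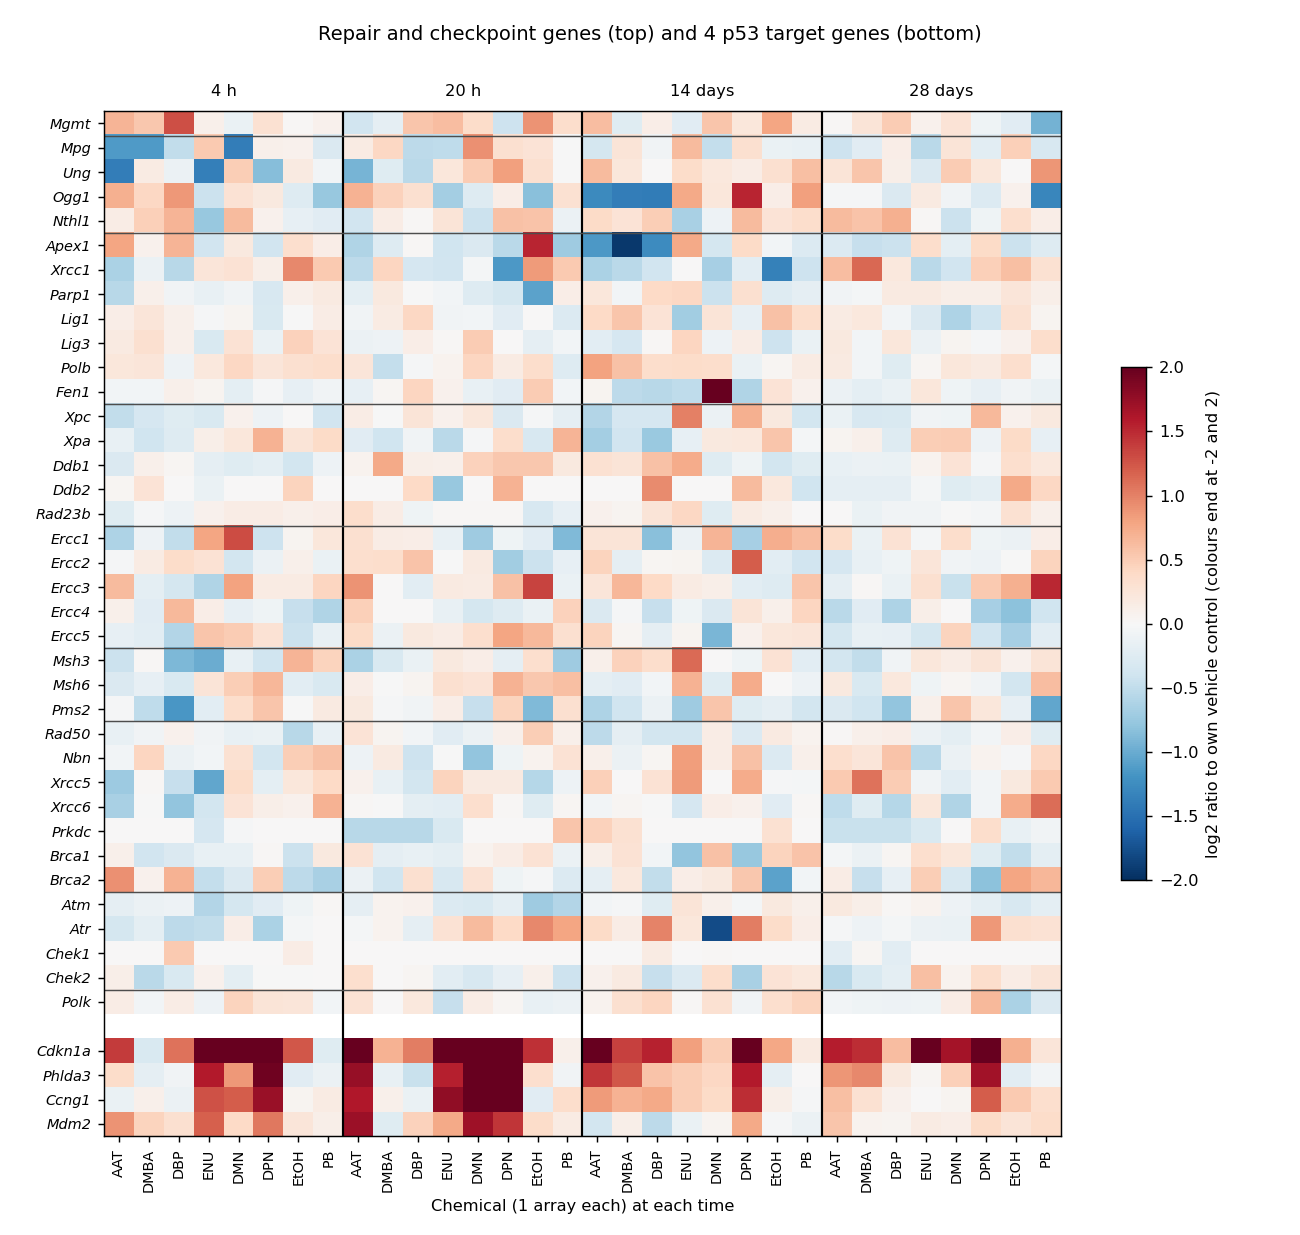
Log2 ratio to own vehicle control (colour, red higher and blue lower, ends at -2 and 2) for 37 repair and checkpoint genes by role and, at the bottom, 4 p53 target genes; columns are the 8 chemicals at 4 h, 20 h, 14 days and 28 days, 1 array each. Among the repair genes 946 of 1184 cells are within 0.5 of 0, while Cdkn1a for DPN at 20 h is 5.67, a bound set by a control at the floor.

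The non-genotoxic class gave no calls among the 37 genes either. The shares of all probe sets called by limma were 0.136% at 4 h, 0.153% at 20 h, 0.12% at 14 days and 1.02% at 28 days. At an unadjusted p under 0.05 there were 0, 3, 1 and 3 genes of 37, against 3.51%, 5.49%, 3.21% and 15.5% of all probe sets. The 3 of 28 days were Ercc3 (1.11 ± 0.37, adjusted p = 0.223), Xrcc6 (0.93 ± 0.29, adjusted p = 0.197) and Ddb2 (0.59 ± 0.13, adjusted p = 0.0989). Ddb2 at 28 days was 55.2 after EtOH and 43.1 after PB, with the shared saline control at the floor. Leaving out the EtOH or the PB array of 28 days leaves 1 array in the class, so calls of those fits are not given. The 3 of 20 h were Atr (0.87 ± 0.25), Atm (-0.65 ± 0.20) and Msh6 (0.57 ± 0.20), with adjusted p of 0.702, 0.772 and 0.8. At 14 days the one gene was Xrcc1 (-0.88 ± 0.36, adjusted p = 1), with the EtOH array at the floor. Atm was 87.9 after EtOH and 96.2 after PB, against 144 in their saline control, the array with the high Cyp2b10 signal. These were the 2 lowest Atm values at 20 h, and the part of the EtOH array's 3′ to 5′ ratio and of that control in them was not tested.

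The difference between the genotoxic and the non-genotoxic class was called for none of the 37 genes, while 0.104%, 0.114%, 0.0599% and 0.518% of all probe sets were called at 4 h, 20 h, 14 days and 28 days. At an unadjusted p under 0.05 there were 1, 0, 0 and 4 of 37, against 3.89%, 4.52%, 5.5% and 13.3%. The lowest adjusted p was that of Ddb2 at 28 days, with -0.75 ± 0.15 (adjusted p = 0.1). Ddb2 was then at the floor for AAT, DMBA, DBP and DMN and in the shared saline control. Values at the floor cannot vary, which makes this error too small.

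Alkylating agents and aromatic mutagens were compared in the same way, since they make different adducts. None of the 37 genes was called, and 0.125%, 0.0981%, 0.0436% and 0.0218% of all probe sets were called at 4 h, 20 h, 14 days and 28 days. At an unadjusted p under 0.05 there were 2, 1, 2 and 6 of 37, against 8.07%, 3.5%, 3.75% and 6.77%. At 28 days these 6 were Nthl1 (-0.80 ± 0.19), Lig1 (-0.54 ± 0.22), Xrcc5 (-0.82 ± 0.30), Apex1 (0.57 ± 0.22), Prkdc (0.46 ± 0.19) and Chek2 (0.69 ± 0.25), with adjusted p from 0.596 to 0.735. At 4 h the 2 were Msh6 (0.72 ± 0.17, adjusted p = 0.398) and Ercc5 (0.77 ± 0.27, adjusted p = 0.556), and at 20 h the one was Ung (1.09 ± 0.36, adjusted p = 1). The 3 aromatic mutagens share 1 olive oil array at each time and the alkylating agents have saline, so vehicle and control array cannot be told apart from the kind of chemical.

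The largest of these differences, Ogg1 and Apex1 at 14 days, turned on single probe sets. Ogg1 had 35.5 for AAT, 32.8 for DMBA and the floor for DBP, against 85.7 in olive oil. For DPN it had 93.9 with its control at the floor. The alkylating minus aromatic difference was 2.19 ± 0.47 (adjusted p = 0.609). On the second kept probe set of Ogg1 the 3 aromatic ratios were -0.32, -0.10 and -0.58, and the DPN ratio was 0.005, where the first had -1.27, -1.39, -1.40 and 1.53.

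Apex1 had 455 (AAT), 264 (DMBA) and 422 (DBP) at 14 days on the probe set used, against 1007 in olive oil, the highest of the 5 controls, the others being 428 to 769. The difference was 1.71 ± 0.47 (adjusted p = 0.927). On the other 2 probe sets of Apex1 the ratios of the 3 aromatic mutagens were between 0.08 and 0.86, the opposite direction. With the mean of the kept probe sets in place of the brightest, the class value of Apex1 at 14 days was 0.02.

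Fen1, the flap endonuclease, had 372 for DMN at 14 days against 80.3 in its control, the largest ratio of the 37 genes (log2 2.21). The other 5 genotoxic arrays were between 62.2 and 98.9, and the second probe set of Fen1 was at the floor on all 13 arrays of that time. Of the 12 ratios of at least 2-fold in the 13 genes with several kept probe sets, 1 had another probe set that moved at least 2-fold the same way: Apex1 after EtOH at 20 h, with 1.52 and 1.37, on the array with the high Gapdh 3′ to 5′ ratio. The reverse also occurred: Parp1, the poly(ADP-ribose) polymerase, had 1.65 after DPN at 14 days on 1 probe set and 1.11 after AAT on another, where the brightest had 0.33 and 0.23. For the 24 genes with 1 kept probe set no such check exists.

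**Figure D4:**
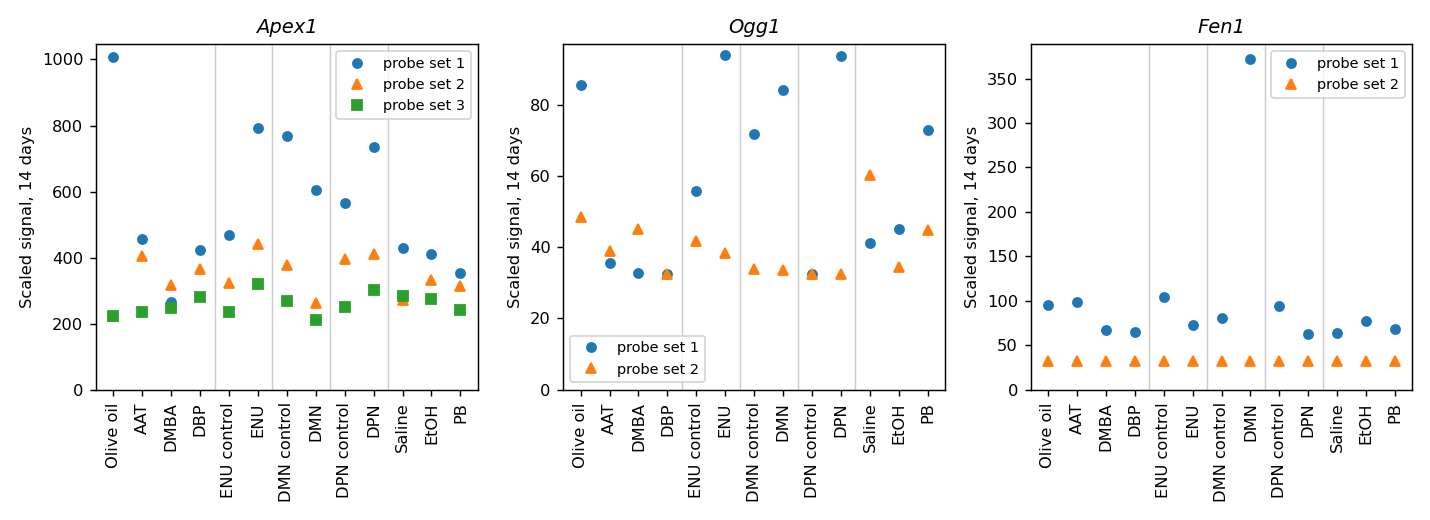
Scaled signal at 14 days (y axis) of each probe set of Apex1, Ogg1 and Fen1 on the 13 arrays (x axis); grey lines divide the sets that share a control. Apex1 probe set 1 is at 1007 in olive oil and at 264 to 455 in the 3 aromatic arrays while its other probe sets stay between 212 and 440, and Fen1 probe set 1 is at 372 for DMN alone.

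The other single-chemical ratios of at least 2-fold that lay outside the saline pairs were scattered over genes. At 4 h they were Ung for AAT (-1.39) and ENU (-1.36, a bound, since the array was at the floor), Mpg for DMN (-1.39), AAT and DMBA (both -1.14, bounds for the same reason), Ercc1 for DMN (1.31, a bound, with the control at the floor), Mgmt for DBP (1.30) and Pms2 for DBP (-1.16). At 20 h all 3 were on the EtOH array: Apex1, Ercc3 (1.34) and Parp1 (-1.07), and the 2 other kept probe sets of Parp1 had -0.44 and 0.83. At 14 days, besides Ogg1, Apex1 and Fen1, they were Atr for DMN (-1.78, a bound), Brca2 for EtOH (-1.06) and Xpc for ENU (1.00). At 28 days they were Xrcc1 and Xrcc5 for DMBA (1.15 and 1.08), and Ercc3 (1.51), Ogg1 (-1.305) and Pms2 (-1.04) for PB, the array with the lowest median. The second probe set of Ogg1 had 0.11 there.

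No gene was called for a change of the genotoxic effect over time. For 20 h minus 4 h, 0% of all probe sets were called and 4.89% had an unadjusted p under 0.05, with 1 of 37 genes, Ddb1. For the first day (mean of 4 h and 20 h) minus the later times (mean of 14 and 28 days), 0% were called and 7.66% had an unadjusted p under 0.05, with 4 of 37: Ercc5 (0.40 ± 0.18), Msh3 (-0.47 ± 0.21), Xrcc5 (-0.39 ± 0.19) and Atm.

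The one call of a repair gene was among the vehicle controls. Ung in the controls was 53 to 113 at 4 h and, at 20 h, 62.1 (olive oil), 38.5 (ENU), 40.0 (DMN), 36.3 (DPN) and 37.9 (saline). At 14 days it was 36.4 (ENU), 41.7 (DPN) and 42.7 (saline), with olive oil and the DMN control at the floor. At 28 days it was 51.6 (ENU), 39.4 (DPN) and 33.4 (saline), with the same 2 at the floor. Every control set was lower at 20 h than at 4 h, and only the olive oil control of 20 h reached above the lowest control of 4 h. Ung fell by 0.69 on the log2 scale from the first day to the later times (SE 0.13, adjusted p = 0.029 by limma over the 20 controls). It fell in 5 of 5 control sets, whose differences ran from -1.36 to -0.39. The value is a bound, since olive oil and the DMN control were at the floor at both later times. Control medians were 83.6 at 4 h, 38.5 at 20 h, 36.4 at 14 days and 33.4 at 28 days, so most of the fall lay between 4 h and 20 h. The call was of 1 of 37 genes, against 0.834% of all probe sets called. Between 4 h and 20 h the Ung difference was -1.02 ± 0.19 (adjusted p = 0.117), and 0 of 37 genes were called against 0.0109% of all probe sets.

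The call of Ung was not firm. Leaving out 1 control at a time gave differences from -0.76 to -0.62, and 10 of the 20 gave 0 calls, with adjusted p of Ung from 0.0577 to 0.0729. These were the olive oil and DPN controls of 4 h, 14 days and 28 days, the DMN control of 20 h, the ENU control of 14 days and the saline controls of 4 h and 28 days. Without the saline control of 14 days it was called together with Ddb1. Without scaling, with the floor at the 45th percentile and without the filter on dim probe sets, no gene was called. At an unadjusted p under 0.05 there were 4 of 37 genes for later minus first day, against 17.8% of all probe sets: Ung, Ddb1 (-0.30 ± 0.07, adjusted p = 0.0669), Xrcc5 (-0.34 ± 0.15) and Ercc4 (0.26 ± 0.12). For 20 h minus 4 h there were 5, against 7.59%: Ung, Apex1 (0.52), Lig3 (0.30), Parp1 (0.23) and Rad23b (0.19).

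**Figure D5:**
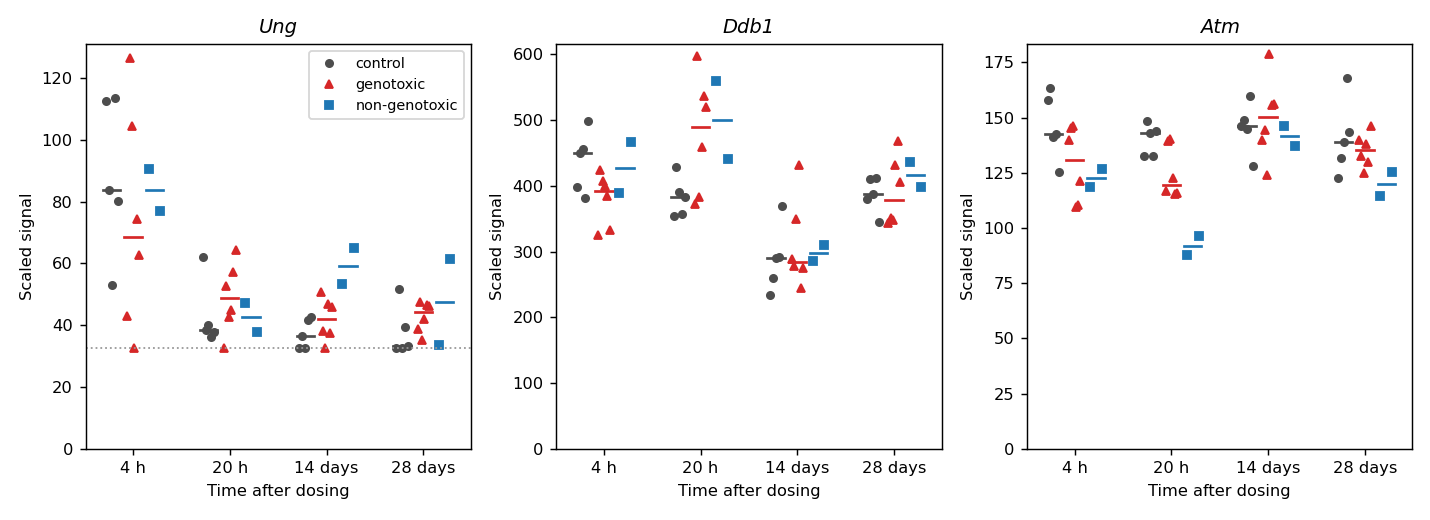
Scaled signal (y axis, from 0) of Ung, Ddb1 and Atm at 4 h, 20 h, 14 days and 28 days for controls (circles), genotoxic (triangles) and non-genotoxic arrays (squares), 1 point an array, with a line at the median; the dotted line is the floor. Control values of Ung are 53 to 113 at 4 h and at most 62.1 later, and Atm after EtOH and PB at 20 h is 87.9 and 96.2.

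Transcripts of other cell types moved over the same times in the controls. All 11 Kupffer cell (liver macrophage) markers kept had lower means at the later times, with a median of -0.21, and Cd5l was called (-0.43 ± 0.10, adjusted p = 0.0495). Their summed signal in controls was 2970 to 4711 at 4 h, 3192 to 4137 at 20 h, 2657 to 3246 at 14 days and 2862 to 3932 at 28 days. Marco was at the floor on most of the arrays. Of the 8 lymphocyte markers kept, Cd3e fell (-1.202, SE 0.23, adjusted p = 0.029) and 6 were higher, and the summed signals were 390 to 579, 455 to 542, 450 to 538 and 411 to 474. Cd3g and Nkg7 were at the floor on most of the arrays. The part of these cells in the Ung difference was not tested.

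In the genotoxic class none of the marker lists held a called gene. The Kupffer cell medians were -0.208, -0.166, 0.191 and 0.051 at 4 h, 20 h, 14 days and 28 days, with 9 of 11 markers lower at 4 h and 10 of 11 higher at 14 days. Of 24 replication and mitosis genes, 18 were kept, with medians of 0.060, 0.003, -0.107 and 0.065, and Mki67, Top2a and Cdk1, which mark dividing cells, were at the floor on most of the arrays.

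Another 87 repair and checkpoint genes were listed beside the 38, and 55 had a kept probe set. None was called in the genotoxic class, and their medians were -0.013, 0.010, -0.007 and -0.015, with 25, 29, 27 and 26 of 55 higher. The largest value at 4 h was that of Pcna, the polymerase clamp (0.57 ± 0.19, adjusted p = 0.458), followed by Poli, a translesion polymerase (-0.44 ± 0.17), Gadd45a, a p53 target (0.34 ± 0.37), and Ube2n (0.26 ± 0.14). Poli was at the floor on 28 of 52 arrays and Gadd45a on 44. At 20 h it was Wee1, the kinase that holds Cdk1 inactive (0.90 ± 0.46, adjusted p = 0.965), then Mre11a, the nuclease of the Rad50 complex (-0.51 ± 0.17), Gtf2h4 (0.44 ± 0.40) and Tdp1 (-0.41 ± 0.31). At 14 days Ube2b, a ubiquitin-conjugating enzyme that works with Rad18, had 0.52 ± 0.20 and its relative Ube2a 0.37 ± 0.13, with adjusted p of 0.403 and 0.387. At 28 days the largest was Polm (-0.425 ± 0.24, at the floor on 7 of 13 arrays), followed by Topbp1 (0.36 ± 0.23).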

How the data were processed

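The value table that the authors deposited held linear probe-set signal intensities of 52 Affymetrix arrays, made from biotinylated cRNA of liver RNA pooled from 5 mice. Which software and scaling lay behind these intensities, and which genome build, the sources used here do not say. Each array was scaled to the mean of the array medians (76.62), values under the 30th percentile were set to it as a floor, and the result was put on a log2 scale. A probe set was kept where 4 or more of the 52 arrays exceeded that floor. Of 22626 probe sets, 20380 had 1 gene symbol in GEO's platform annotation, 691 several and 1555 none. limma 3.58.1 in R 4.3.3 (lmFit, eBayes with a variance trend, control set as a block, Benjamini-Hochberg over all kept probe sets) gave every adjusted p, and the fits were tested on simulated data. Intervals are 95%. Treated pools are single, so p-values of the class comparisons measure the spread between chemicals. Those of the controls over time measure how far the control sets differ in their changes. The number of arrays limits the precision. Python 3.11.15 and matplotlib 3.10.9 drew the figures. The genes, gene lists and tests were chosen with earlier results of these data known. Genes were named where called, among the 4 largest in each direction of a genotoxic comparison, or at least 2-fold and outside the saline pairs for 1 chemical; in the other class comparisons those with an unadjusted p under 0.05 are given instead. Alternatives changed the scaling, floor, filter, block, variance trend, pooling of times and probe set choice, and left out arrays.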

Additional observations from a re-analysis of the deposited data

Results flagged for a closer look

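Ratios of the 6 genotoxic chemicals were looked at for 1 array far from the other 5 in each of 148 groups (37 genes at 4 times). Such an array was found in 13 groups (8.78%). The limit used would flag about 1 in 20 groups of independent, normally distributed values. Here AAT, DMBA and DBP share 1 control and some values tie at the floor, so that rate does not apply and no excess can be read from it. All values are log2 ratios to own control. At 14 days they were: Fen1 after DMN at 2.21, the next being 0.05, Atr after DMN at -1.78, with the treated array at the floor, and Chek1 after DBP at 0.17. At 4 h they were: Rad50 after DBP at 0.08, Prkdc after ENU at -0.34 and Chek1 after DBP at 0.52. Polk after ENU at 20 h had -0.47. At 28 days they were Fen1 after ENU (0.22), Xpc after DPN (0.65), Ddb2 after ENU (-0.04), Ercc5 after DMN (0.45), Atr after DPN (0.86) and Polk after DPN (0.65). Both Chek1 values are bounds, with the control at the floor. Chek1, Prkdc and Ddb2 were mostly at the floor, where a single value above it stands apart.

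Among the 5 controls of 20 h, Ung in olive oil had a log2 signal of 5.96, against 5.32 for the next. The causes of these values were not tested.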

How the results depend on the processing

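No gene was called in the genotoxic class under any alternative run. In the comparison of alkylating agents with aromatic mutagens at 4 h, leaving out the control set block gave 1 call, Ercc5. With the block, 0.125% of all probe sets were called there, and the share without it is not given. In the non-genotoxic class and in genotoxic minus non-genotoxic, calls at 20 h and 28 days changed only where the EtOH or the PB array was left out. Such fits leave 1 array in the non-genotoxic class, so their calls are not given. At 20 h the array left without PB is that of EtOH, with 15.3% of all probe sets at least 2-fold from the control. Among the controls, later minus first day, leaving out 1 array gave 0 to 2 calls, and with all 20 controls 0.834% of all probe sets were called. The call of Ung went to 0 without scaling, with the floor at the 45th percentile and without the filter. With probe sets above the floor on every array Ung was not tested and the count was 0.

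Medians of the repair and checkpoint genes (log2) moved most without scaling. They were 0.235, -0.05 and -0.109 for the genotoxic class from 20 h to 28 days, and -0.253, -0.307, 0.006 and -0.46 for the non-genotoxic class at the 4 times. They were 0.206, 0.653 and 0.336 for the difference of the classes at 4 h, 20 h and 28 days, 0.065, 0.196, 0.127 and 0.2 for alkylating minus aromatic, and 0.253 and 0.228 for the effects over time. Medians of all probe sets moved too, to 0.22, -0.056 and -0.114 for the genotoxic class and -0.246, -0.312, -0.109 and -0.491 for the non-genotoxic. Quantile normalization gave 0.067 (non-genotoxic, 28 days). The higher floor gave 0.039 (genotoxic) and 0.027 (non-genotoxic) at 14 days. Probe sets above the floor on every array gave 0.059 and 0.205 (alkylating minus aromatic, 4 h and 14 days). Without the block, medians were 0.036 (genotoxic, 14 days), -0.033 and 0.073 (non-genotoxic, 4 h and 28 days), and 0.097 and 0.102 (alkylating minus aromatic, 4 h and 20 h). The mean of kept probe sets gave 0.019 (non-genotoxic, 14 days), and 0.023 and 0.027 (alkylating minus aromatic, 4 h and 28 days).

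Leaving out single arrays, medians ran from -0.064 to 0.006 for genotoxic at 4 h, and from 0.024 to 0.133 and from 0.086 to 0.151 for non-genotoxic at 14 and 28 days. For the difference of the classes they ran from -0.103 to 0.119, -0.026 to 0.068 and -0.142 to -0.042 from 20 h to 28 days, and for alkylating minus aromatic from -0.13 to 0.106 and 0.036 to 0.108 at 4 h and 14 days.

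Signs turned for Nbn at 20 h without scaling (0.004), Apex1 at 14 days with the mean of probe sets (0.022) or without olive oil (0.265), Ercc1 at 4 h without DMN or its control (-0.064) and Xrcc5 at 28 days without olive oil (-0.111). Leaving out single arrays, Ercc1 ran from -0.064 to 0.563, Apex1 from -0.608 to 0.265 and Xrcc5 from -0.111 to 0.269.

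With a fold limit of 1.5, the counts of large ratios were 35, 19, 50 and 15 (genotoxic) and 7, 16, 7 and 16 (non-genotoxic), 165 in all. Without scaling they were 6, 67 and 1 (genotoxic, 20 h to 28 days) and 1, 6 and 29 (non-genotoxic, 4 h, 20 h and 28 days), 123 in all. With log2(value + 16) and no floor they were 4 (genotoxic, 20 h) and 1 and 1 (non-genotoxic, 4 h and 14 days). With the higher floor they were 0, 5 and 0 (genotoxic, 4 h, 14 and 28 days) and 0 and 1 (non-genotoxic, 14 and 28 days), 10 in all. The mean of probe sets gave 5 (genotoxic, 14 days). Shares of all probe sets at these settings are not given, so the counts have no background beside them. Causes were not tested, beyond that a higher floor and fewer arrays leave less to test. No paired analysis was possible because the labels carry no replicate numbers, beyond the pairing of chemicals with their own control that the block already holds. Dim signal limits Chek1, Prkdc, Ddb2, Ercc4, Xrcc5 and Ung, the genes most often at the floor.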
